A study of Saccharomyces cerevisiae with 112 samples.

Results

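Starved budding yeast with a tag on the silencing protein Sir3 were compared with their untagged parent. The comparison holds 12 of the 112 RNA-seq libraries of the series: 8 libraries of the tagged strains Sir3_3xT7 and Sir3_3xHA and 4 of wild type wt1, each taken in starvation (SP) and 5 min after release into fresh medium and matched by time. The libraries were picked by strain and stage alone. All were grown in YPD (rich glucose medium) for 72 h at 30 °C to saturation.

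The parent wt1 is the haploid S288C derivative NKI12318, of mating type MATa. Its alleles are ura3d0, trp1d63, met15d0, lys2d0, leu2d0, his3d200 and bar1::HisG, and it carries HIS3 and the Cre recombinase construct Pgpd_CRE_EBD78. The tagged strains have the same background with a recombination cassette at the C-terminus of Sir3, which gives a 3xHA tag before and a 3xT7 tag after an estradiol-induced switch. Sir3_3xT7 is thus the switched form of Sir3_3xHA and not an independent strain, and the submitters class both as hypomorphs, strains in which Sir3 works less well. Each strain has 2 libraries per time, replicates 1 and 2, and the time points of 1 replicate form a series, so there are 4 tagged and 2 wt1 series. Separate cultures are not stated for the replicates. The p-values therefore cover the variation among libraries alone, and that variation could be technical. For the gene tests it was pooled over 16 series of 8 strains. Besides wt1 and the tagged strains, these were another wild type, a Sir3 overexpressor and deletions of SIR2, SIR3 and SIR4.

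As background, Sir2, Sir3 and Sir4 form a complex that keeps genes near chromosome ends and the spare mating-type cassettes HML and HMR silent. A MATa cell expresses the a mating type, with a set of a-specific genes for the a-factor pheromone and the alpha-factor receptor. When HML is not silent, the alpha2 protein made from it represses the a-specific genes together with Mcm1. The a1 and alpha2 proteins together also repress the haploid-specific genes, which hold the pheromone signalling pathway and the meiosis inhibitor RME1, as they do in a diploid.

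Sequences that resemble the operators of these repressors are shown because the repressors define the a-specific and haploid-specific lists used below. The bases upstream of every start codon in the R64 reference (RefSeq) were searched over 500 bases and on both strands for an alpha2-Mcm1-type pattern: TGT, 5 bases of any kind, CC, 6 bases of any kind and GG. It was found upstream of 6 of 7 a-specific genes, against 2.75% of all 6002 protein-coding genes. Its fixed letters are in capitals, each sequence reads 5′ to 3′ on the strand that carries the pattern, and where there were 2 overlapping matches the 1 on the gene's strand is given. The matches lay at chrIV:1384938-1384967 (+) for MFA1, chrXIV:352159-352188 (+) for MFA2, chrVI:82356-82385 (-) for STE2, chrXI:46482-46511 (-) for STE6, chrVII:437106-437135 (-) for AGA2 and chrIX:322074-322103 (+) for BAR1.
MFA1: cgagtgTGTaattaCCcaaaaaGGaaattt
MFA2: aaagcaTGTatttaCCtattcgGGaaattt
STE2: tcatcaTGTacttaCCcaattaGGaaattt
STE6: ttgccaTGTaattaCCtaatagGGaaattt
AGA2: aaaccaTGTaatttCCgaatacGGtaatta
BAR1: atggcaTGTaattaCCgtaaaaGGaaatta

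An a1-alpha2-type pattern, ATGT followed by 8 bases of any kind and ACATCA, was found upstream of 4 of 13 haploid-specific genes, against 0.25% of all protein-coding genes. In RME1 it lay at chrVII:584273-584302 (-) and in GPA1 at chrVIII:115250-115279 (-), and the fixed letters are again in capitals. Another form was also searched: TGT, 7 bases of any kind and TACATCA. It was found upstream of 3 of 13 haploid-specific genes, against 0.333% of all, and not upstream of GPA1. A match describes letters only and is not a bound site, and genes without a match may carry a variant of the pattern.
RME1: agtgagATGTcacagattACATCAaaaggt
GPA1: ctcagcATGTtaaaaagcACATCAatttag

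The authors deposited, for every coding sequence, its median read coverage as a log2 value scaled to a fission yeast spike-in. Values were taken back to the linear scale and expressed here as log2(value + 0.0288) relative to the median gene of each library, called the level below. Reads of a gene, as given below, stand for its median coverage over the coding sequence. A gene listed at 0 may still hold reads over part of its length. Coverage per gene was low in replicate 1, with a median of 4 to 24.5 reads, against 41 to 114 reads in replicate 2. The lowest, 4 reads, belongs to Sir3_3xT7 replicate 1 at 5 min. Coverage of 0 carries a stand-in value that differs between all libraries in replicate 1 but is shared by SP and 5 min of a strain in replicate 2. The replicate numbers thus differ in depth and in processing, and values within each number are given beside the called genes that have a fold. In replicate 1, 12 genes were listed at 0 in every library although their mean in replicate 2 was at least 10 reads, among them SCW10 of the pheromone response list.

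SIR3 itself, the tagged gene, was detected in all 12 libraries at a low level. Its coverage was 1 to 37 reads in the tagged libraries and 4 to 45 reads in wt1, with median levels of -1.96 and -1.68, so it fell under the filter on low values and was not tested. In the SIR3 deletion strain Sir3D it was listed at 0 in all 4 starved libraries. The mRNA does not measure how much tagged protein was present. SIR2, the histone deacetylase of the complex, differed by -0.28 ± 0.39 (SE) and SIR1, which acts at the silent cassettes, by -0.04 ± 0.23 on the log2 scale. Neither passed the test (limma, adjusted p = 1.00 for both).

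The deleted marker genes LEU2, LYS2, MET17 and URA3 were listed at 0 in all 12 libraries. TRP1, for which the label gives trp1d63, was not: it had 6 to 71 reads in wt1 and 2 to 126 reads in the tagged libraries. For BAR1, the protease that degrades alpha-factor, the parental label gives bar1::HisG, which does not state how much of the gene remains. BAR1 was not at 0 either, with 91 to 138.5 reads in wt1 and 10.5 to 313 reads in the tagged libraries. It was listed at 0 in all 4 starved libraries of wt2, the other wild type of the series, whose label has a BAR1 deletion. HMRA1, the a1 gene, was high in both groups, at levels of 3.07 to 4.61 in wt1 and 4.08 to 5.13 in the tagged strains (0.42 ± 0.58, adjusted p = 1.00). MATa cells carry the a1 sequence at MAT as well, and the R64 reference has it only at HMR, so this value does not separate the locations. HMLALPHA1, HMLALPHA2, MATALPHA1 and HMRA2 were listed at 0 in all 12 libraries. In R64 their coding sequences have 2, 2, 2 and 3 exact copies. The handling of reads with several equal matches is not stated in the labels, so no level of alpha1 or alpha2 can be read from these values.

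In the comparison averaged over SP and 5 min, 6 of 4505 tested genes passed the test (0.133%; limma, Benjamini-Hochberg adjusted p under 0.05 and a log2 difference of at least 1). At an unadjusted p under 0.05 there were 38 genes, a smaller share of the 4505 than the 0.05 reached when no gene differs. This count is thus no measure of how many genes differ. The same holds for the 43, 18 and 72 genes given below for other comparisons. The 4 genes that were higher in the tagged strains (0.0888%) were COS12, YGL262W, YIR042C and GEX1, and all lie within 10 kb of a chromosome end. Their highest wt1 values were 0.0066, 0.049, 0.064 and 0, so they passed the filter on low values through the tagged libraries alone. The last 10 kb held 24 of the 4505 tested genes, and 11 of these 24 had no wt1 library above the filter's minimum. The shared place of the 4 genes is thus a description with no test. The 2 genes that were lower (0.0444%) were the mating genes FUS3 and STE2. All 6 had the same sign within replicate 1 and within replicate 2. In a fit of only wt1 and the tagged strains, 2 genes passed, COS12 and YGL262W. Without wt1 replicate 1 or without wt1 replicate 2, 3 genes passed, COS12, YGL262W and YIR042C. The median difference over all tested genes was 0.04.

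**Figure D1:**
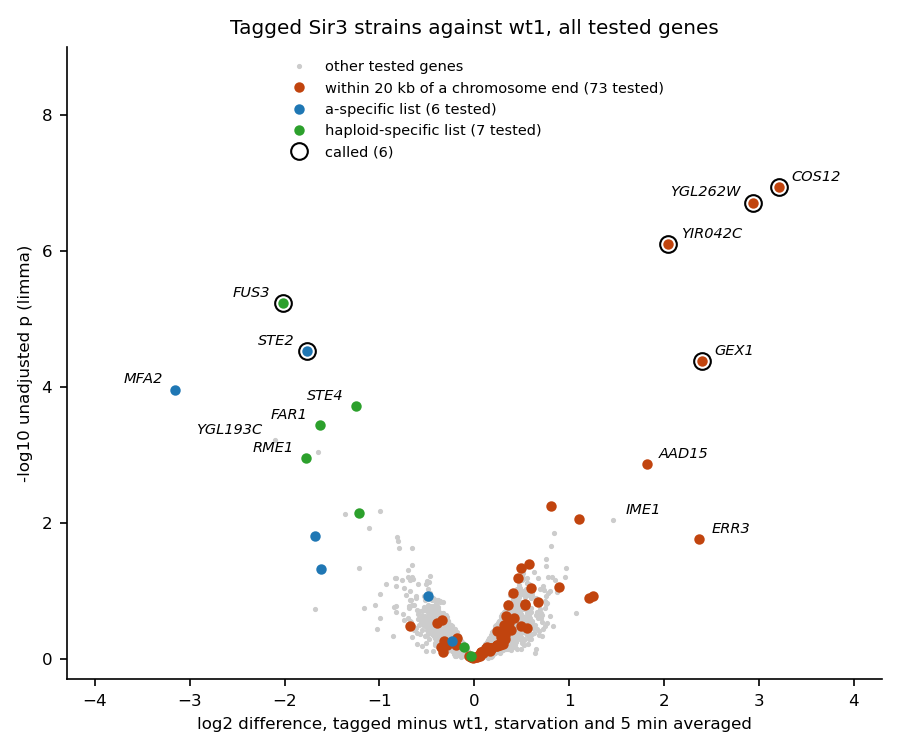
Log2 difference between tagged strains and wt1 (x axis) against -log10 of the unadjusted limma p (y axis), 1 point per tested gene, with genes near chromosome ends and the a-specific and haploid-specific lists in colour and the 6 called genes ringed. The ringed genes on the right are subtelomeric and had no wt1 library above the filter's minimum, and those on the left are mating genes.

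COS12 (YGL263W, 2.79 kb from the left end of chromosome VII), a member of a family of subtelomeric membrane protein genes, was listed at 0 in 3 of 4 wt1 libraries and had 1 read in the other, wt1 replicate 1 at 5 min. It had 4 to 206 reads in the 8 tagged libraries. Its level there was -1.07 at the lowest, -0.38 at the median and 0.19 at the highest, above every wt1 library (-4.22 to -2.83). The fitted difference was 3.21 ± 0.32 (adjusted p = 0.00044), 2.68 within replicate 1 and 3.74 within replicate 2. Since wt1 was nearly all at 0, this fitted value depends on how 0 is treated. It was 0.92 with a pseudocount 10 times as large (adjusted p = 0.052) and 1.27 with the deposited stand-in for coverage 0 kept (adjusted p = 1.00), and neither passed. Of its 1094 words of 50 bases, 0 occur in another gene.

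YGL262W (5.31 kb from the same end), a gene of unknown function next to COS12, had 5, 13, 1 and 4 reads in wt1 replicates 1 and 2 at SP and at 5 min. It had 11 to 166 reads in the tagged libraries. Its levels were -2.37, -2.40, -2.83 and -3.55 in those wt1 libraries and -0.75, 0.38 and 0.82 at the lowest, median and highest tagged library, with no overlap. The difference was 2.94 ± 0.31 (adjusted p = 0.00044), 2.80 within replicate 1 and 3.08 within replicate 2.

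YIR042C (3.90 kb from the right end of chromosome IX), also of unknown function, had levels of -2.37 and -2.07 at SP and -2.38 and -2.53 at 5 min in wt1 replicates 1 and 2. The tagged libraries lay between -0.49 and -0.02 with a median of -0.31, a narrow range well above wt1. The difference was 2.04 ± 0.24 (adjusted p = 0.0012), 1.97 within replicate 1 and 2.12 within replicate 2. With wt2 in place of wt1 it was 1.21 and did not pass the test (adjusted p = 0.086).

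GEX1 (YCL073C, 8.32 kb from the left end of chromosome III), which encodes a proton-glutathione exchanger, was listed at 0 in all 4 wt1 libraries and had 2 to 49 reads in all 8 tagged libraries. It passed the test (adjusted p = 0.032), but no fold is given because wt1 was at 0. Its call held in 9 of 22 alternative fits, the fewest of the 6 genes, and of the single series it could spare only Sir3_3xHA replicate 2. Of its 50-base words 60.2% also occur in its copy GEX2, so the reads may belong in part to either gene.

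**Figure D2:**
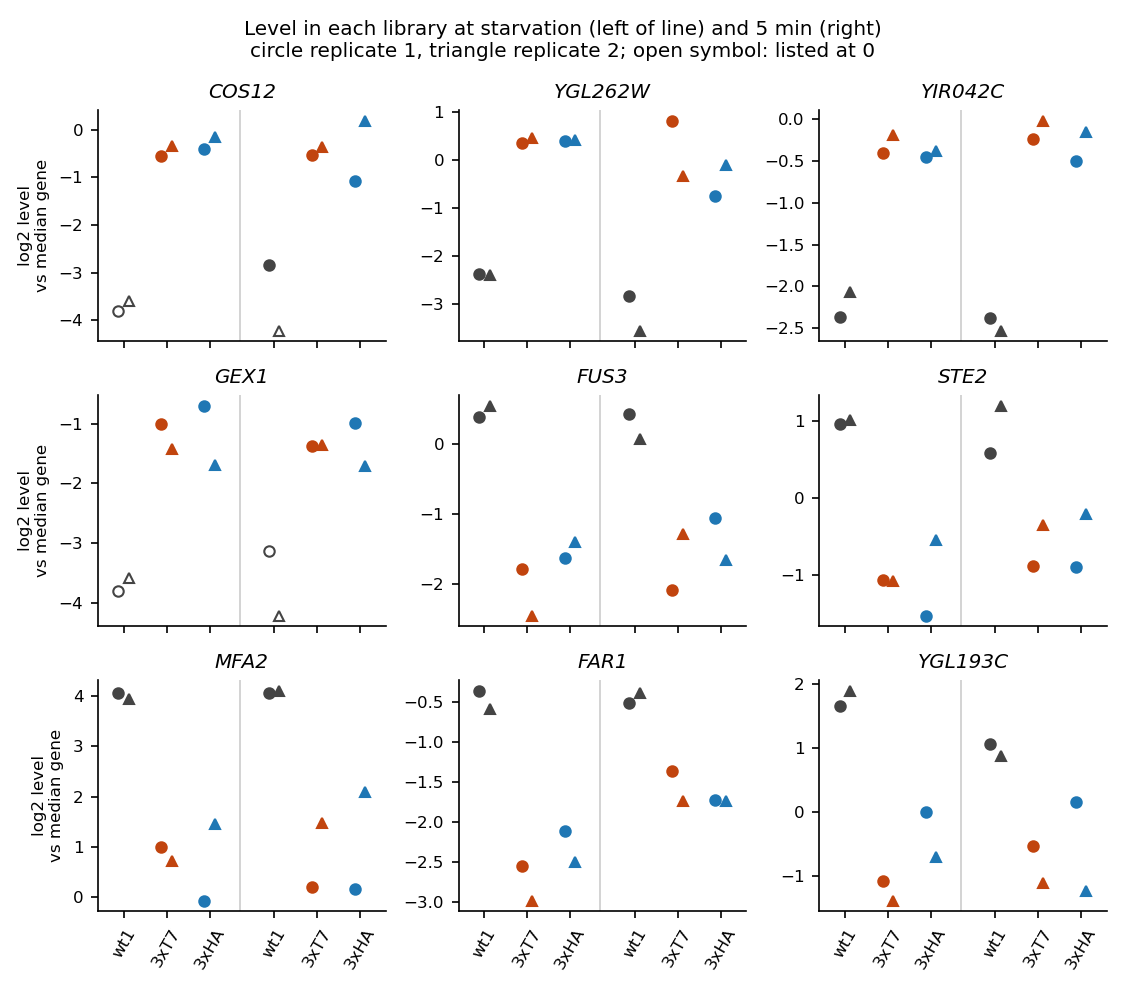
Level of 9 genes (log2 relative to the median gene, y axis) in each wt1, Sir3_3xT7 and Sir3_3xHA library (x axis), at SP left and 5 min right of the line, with circles for replicate 1, triangles for replicate 2 and open symbols for libraries in which the gene was listed at 0. In each panel every tagged library lies on 1 side of all 4 wt1 libraries, above for the 4 subtelomeric genes and below for the other 5.

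The table holds 70 genes in the last 10 kb of the chromosomes, and 47 of them had coverage in at least 1 of the 12 libraries. Without a filter on low values, all 4 tagged series exceeded both wt1 series for 13 of these 47 genes (27.7%), beside 3.06% of all 6004 genes with coverage. The tagged series were below both wt1 series for 2 of the 47 (4.26%), beside 2.76% of all. Between 10 and 20 kb the counts were 4 higher and 0 lower of 95 genes. These counts are a description with no test. The filter on low values favours genes that are high in the tagged strains, which have 8 of the 12 libraries. Of the 24 tested genes in the last 10 kb, 11 had no wt1 library above the minimum, and so had 8 of the 10 tested genes with all tagged series above wt1, so no share or median of the tested genes there is read as a result.

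**Figure D3:**
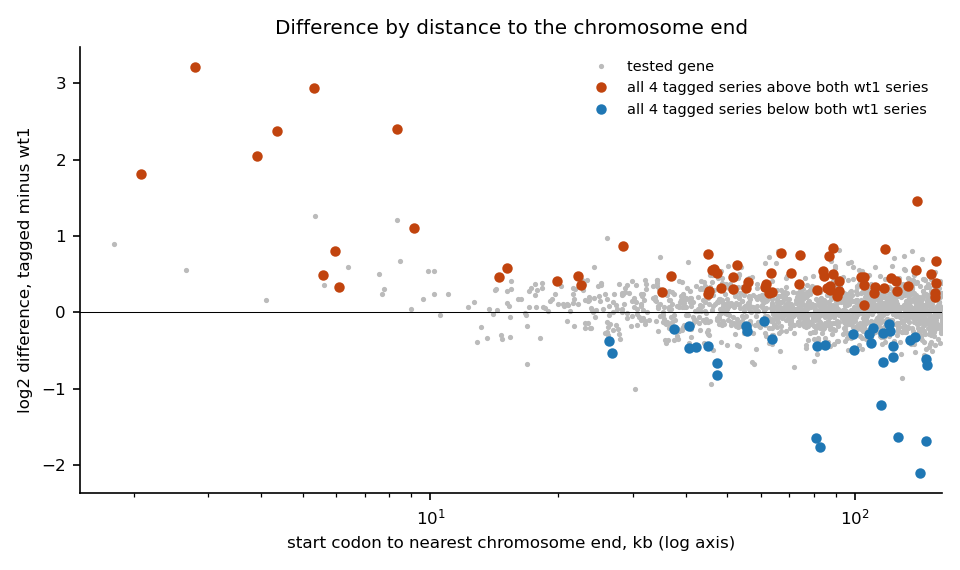
Log2 difference between tagged strains and wt1 (y axis) by the distance from the start codon to the nearest chromosome end in kb (log axis), 1 point per tested gene within 160 kb. Coloured points are genes whose 4 tagged series all lie above or all below both wt1 series, and of the 24 points from 0 to 10 kb, 11 had no wt1 library above the filter's minimum.

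The other tested genes of that outermost 10 kb with all tagged series above wt1 did not pass the test. They were AAD15 (1.82 ± 0.45, adjusted p = 0.47), an aryl-alcohol dehydrogenase relative, ERR3 (2.37 ± 0.88), an enolase relative, IRC7 (0.81 ± 0.25), YGL258W-A (1.11 ± 0.36), AIF1 (0.49 ± 0.23) and MCH2 (0.33 ± 0.27). ERR3 shares 64.1% and AAD15 34.5% of their 50-base words with relatives elsewhere, so their values are uncertain. The 6 tested COS genes had a median of 0.74, and all 6 differences were positive (0.17 to 3.21). Their median was 0.71 at midlog, and -0.001 for Sir3D minus wt2 in starvation. In the starved tagged strains the 1 called member, beside 0.0888% of all tested genes called higher, was COS12, which passed the filter through the tagged libraries alone. COS1 and COS7 share 71.1% and 65.8% of their words with other members.

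Neighbours of the called genes on the same chromosome ends differed in how they behaved. On the left end of chromosome VII, YPS5 (0.67 ± 0.44), MNT2 (0.29 ± 0.34) and ADH4 (0.58 ± 0.26) lie inward of COS12 and YGL262W and did not pass the test, although ADH4, an alcohol dehydrogenase, had all tagged series above wt1. On the right end of chromosome IX, the aspartyl protease gene YPS6 differed by 0.31 ± 0.30 and GTT1, a glutathione transferase gene, by -0.06 ± 0.56. On the left end of chromosome III, CHA1, the serine and threonine deaminase gene on the inner side of HML, differed by -0.67 ± 0.67.

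A few genes were listed at 0 in all 4 wt1 libraries and above 0 in all 8 tagged libraries. There were 6 such genes among the 6319 in the table, and 0 genes had the opposite pattern. The opposite pattern is harder to meet, since it needs a 0 in all 8 tagged libraries and not in 4. The 6 genes were picked by these values, which are a description with no test. Besides GEX1, the 6 include VBA3 (YCL069W, 9.71 kb from the end), a vacuolar amino acid transporter gene, with 2 to 102 reads, and YCL068C (12.28 kb), with 1 to 7 reads. GEX1, VBA3 and YCL068C all lie between the left end of chromosome III and HMLALPHA2, a gene of HML whose start codon is 13.02 kb from the end. Where the HML cassette itself begins was not examined, so no statement is made on whether any of them lies inside it. Of their 50-base words, VBA3 shares 74.8% with VBA5 and YCL068C shares 85.6% with BUD5, so only the remainder is their own. The others were YKL225W and YOL166C, which the annotation used here does not hold, and IME4.

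IME4 (YGL192W) lies inside chromosome VII, 142.2 kb from the end, and encodes the mRNA methyltransferase needed for meiosis, whose sense RNA is kept low in haploid cells. In Sir3_3xT7 it had 13 and 34 reads at SP and 2 and 13 reads at 5 min in replicates 1 and 2. In Sir3_3xHA it had 12 and 23 reads at SP and 5 and 33 reads at 5 min. Thus the median coverage of IME4 was above 0 in every tagged library and 0 in every wt1 library. The table marks every row as sense transcription, while the counting program is not given in the sources used here.

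**Figure D4:**
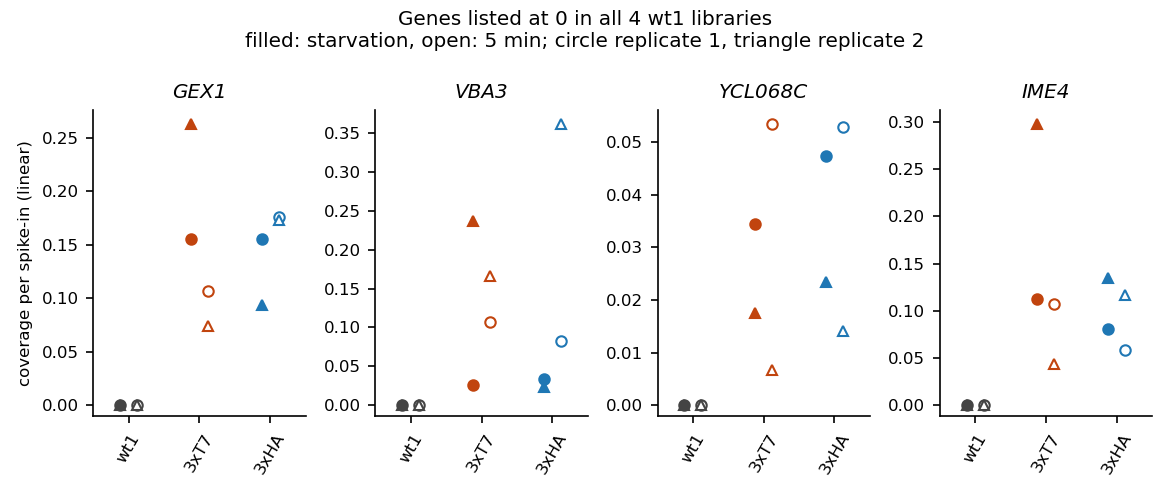
Linear coverage relative to the spike-in (y axis) of GEX1, VBA3, YCL068C and IME4 in each wt1, Sir3_3xT7 and Sir3_3xHA library (x axis), with filled symbols for SP and open symbols for 5 min, circles for replicate 1 and triangles for replicate 2. The 4 wt1 libraries sit at 0 in each panel and all 8 tagged libraries lie above 0.

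Both genes called lower, FUS3 and STE2, act in mating. FUS3, the MAP kinase of the pheromone pathway, had levels of 0.37 and 0.54 at SP and 0.42 and 0.06 at 5 min in wt1 replicates 1 and 2. The tagged libraries had -2.45 at the lowest, -1.65 at the median and -1.07 at the highest, all below wt1. The difference was -2.02 ± 0.28 (adjusted p = 0.0066), -2.04 within replicate 1 and -2.005 within replicate 2. In bulk RNA, a lower level in every cell and the loss of the transcript in some of the cells cannot be told apart, here and for the genes below.

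STE2, the alpha-factor receptor and an a-specific gene, had levels of 0.97 and 1.01 at SP and 0.58 and 1.20 at 5 min in wt1 replicates 1 and 2. The tagged libraries had -1.54, -0.89 and -0.21 at the lowest, median and highest, again with no overlap. The difference was -1.76 ± 0.29 (adjusted p = 0.027), -1.87 within replicate 1 and -1.65 within replicate 2. Without wt1 replicate 1 or wt1 replicate 2 the adjusted p was 0.16 and 0.11 for FUS3 and 0.16 and 0.55 for STE2. The STE2 call was also lost without Sir3_3xT7 replicate 1 (0.14), Sir3_3xT7 replicate 2 (0.068) or Sir3_3xHA replicate 1 (0.099). Neither gene passed on the spike-in scale (adjusted p = 0.45 for FUS3 and 1.00 for STE2), with array weights (0.14 for both) or in a fit of only wt1 and the tagged strains (0.095 and 0.30). For Sir3_3xHA alone against wt1, 0 genes were called lower, so neither passed. For Sir3_3xT7 alone, 1 gene was called lower.

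The a-specific list has 7 genes, of which 6 passed the filter on low values. Their median difference was -1.65, beside 0.04 over all tested genes, and 1 was called lower, beside 0.0444% of all. MFA2, an a-factor gene, had levels of 4.05 and 3.94 at SP and 4.05 and 4.10 at 5 min in wt1 replicates 1 and 2, against -0.07, 0.86 and 2.10 at the lowest, median and highest tagged library. The groups are far apart, yet its spread is large (-3.15 ± 0.59, adjusted p = 0.071 in the average). MFA1, the other a-factor gene, differed by -1.68 ± 0.61, AGA2, an a-agglutinin subunit, by -1.61 ± 0.74, STE6, the a-factor exporter, by -0.49 ± 0.29 and BAR1 by -0.23 ± 0.38 (adjusted p = 1.00 for these 4). For 3 of the 6, all tagged series lay below both wt1 series, beside 2.55% of all tested genes.

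The haploid-specific list has 13 genes, of which 11 are in the table and 7 passed the filter. Their median difference was -1.24, and all 7 differences were negative. Of the 7, 1 was called lower (0.0444% of all tested genes), and in 5 all tagged series lay below both wt1 series (2.55% of all). Besides FUS3 these 5 were STE4 (-1.24 ± 0.25, adjusted p = 0.11) and GPA1 (-1.22 ± 0.38), the beta and alpha subunits of the pheromone G protein, FAR1 (-1.63 ± 0.35, adjusted p = 0.18), the inhibitor that arrests the cycle on pheromone, and RME1 (-1.77 ± 0.43, adjusted p = 0.42). AXL1 (-0.03 ± 0.31), an a-factor protease, and DIG2 (-0.11 ± 0.25), a Ste12 inhibitor, were close to 0. Under the filter, HO, the mating-type endonuclease, had median levels of -2.06 in the tagged and -1.09 in the wt1 libraries, STE5, the pathway scaffold, -1.87 and -1.20, and STE12, the pathway transcription factor, -1.80 and -1.12. The ranges of the groups overlapped for each of these 3.

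YGL193C, a gene next to IME4 known to be repressed by a1-alpha2 in diploids, had levels of 1.66 and 1.89 at SP and 1.07 and 0.88 at 5 min in wt1 replicates 1 and 2. The tagged libraries lay from -1.38 to 0.16 with a median of -0.89. The difference was -2.11 ± 0.47 (adjusted p = 0.27 in the average). IME1, the master activator of meiosis that Rme1 represses, had levels of 0.49, 1.28 and 2.05 at the lowest, median and highest tagged library against -0.54 to 0.46 in wt1 (1.46 ± 0.48, adjusted p = 1.00). The groups did not overlap, but the difference did not pass the test.

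The lists of genes that respond to pheromone and of genes specific to alpha cells held 0 calls in the average. AGA1, the agglutinin anchor, differed by -1.65 ± 0.39 (adjusted p = 0.38), -0.82 within replicate 1 and -2.48 within replicate 2. The other 4 tested members of the pheromone response list, among them KAR4 (-0.35 ± 0.33), PRM4 (-0.28 ± 0.55) and PRM5 (-0.11 ± 0.42), lay between -0.35 and 0.14. The 4 alpha-specific genes, which would be on in an alpha cell, had a median of -0.29 and 0 calls. STE3, the a-factor receptor, differed by -0.31 ± 0.31, the alpha-agglutinin gene SAG1 by -0.28 ± 0.35, and the alpha-factor genes MF(ALPHA)1 and MF(ALPHA)2 by -0.82 ± 0.41 and 0.63 ± 0.75. Of the meiosis list, 5 of 16 genes were tested and 0 were called, with DMC1 at 0.87 ± 0.50 and RIM4 at 0.02 ± 0.39.

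The remaining named genes of the averaged comparison did not pass the test. Those with a lower level and all tagged series below wt1 were GCV1 (-0.99 ± 0.31), a subunit of glycine decarboxylase, LEE1 (-1.37 ± 0.44), DIA3 (-1.11 ± 0.38), HAT2 (-0.82 ± 0.30), a subunit of a histone acetyltransferase, and SUT2 (-0.80 ± 0.30), a regulator of sterol uptake. Those with a higher level were YNL043C (0.84 ± 0.30), IMD4 (0.81 ± 0.32), an IMP dehydrogenase gene, LIP5 (0.76 ± 0.32), which acts in lipoic acid synthesis, GDH2 (0.75 ± 0.34), the NAD-dependent glutamate dehydrogenase gene, and CIR2 (0.54 ± 0.24). Beyond mating, meiosis and the chromosome ends, 36 other lists (growth, metabolism, stress, cell cycle, silencing factors and strain markers) held 888 list entries among the tested genes and 0 calls, with list medians from -0.23 to 0.36. The highest was that of heat shock and chaperone genes (median 0.36, all tagged series above wt1 in 6 of 31), followed by glycolysis and fermentation (0.28, 0 of 23) and ribosomal proteins (0.25, 3 of 103). Over the 888 entries, all tagged series were above wt1 in 40 and below in 17, beside 3.2% and 2.55% of all tested genes.

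At SP alone, 9 genes passed the test (0.2% of all tested), 4 higher and 5 lower. These are the 6 of the average with MFA2 (-3.22 ± 0.50, adjusted p = 0.014), FAR1 (-2.06 ± 0.35, adjusted p = 0.026) and YGL193C (-2.56 ± 0.44, adjusted p = 0.027). Within replicates 1 and 2, MFA2 differed at SP by -3.58 and -2.85, FAR1 by -1.97 and -2.15 and YGL193C by -2.19 and -2.93. At 5 min, 3 genes passed (0.0666%), COS12 (3.09 ± 0.47), YGL262W (3.10 ± 0.44) and YIR042C (2.23 ± 0.35), each with an adjusted p of 0.017. The mating genes kept negative values at 5 min without passing, with FUS3 at -1.77 ± 0.43 and STE2 at -1.48 ± 0.39. Whether the first 5 min differ between the tagged strains and wt1 was tested directly, as the change from SP to 5 min, and 0 genes passed (lowest adjusted p = 0.34; 359 genes at an unadjusted p under 0.05). At 5 min the counts rest on single libraries: without Sir3_3xT7 replicate 1, the library with a median of 4 reads, 0 genes passed, and the same held without Sir3_3xHA replicate 2 or wt1 replicate 2. Without wt1 replicate 1 or Sir3_3xT7 replicate 2, 1 gene passed at 5 min. At SP, 4 genes passed without wt1 replicate 1 and 2 without wt1 replicate 2.

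At midlog, in growing cultures, the mating genes called in starved cells did not pass the test. In midlog libraries, tagged minus wt1 was 0.19 ± 0.53 for FUS3, 0.39 ± 0.33 for STE2, -0.03 ± 0.57 for MFA2 and 0.41 ± 0.34 for FAR1, and 0 of 4505 genes passed the test there (43 at an unadjusted p under 0.05). The change of the difference between midlog and starvation was tested within series and called 6 genes, all negative (0.133%). They were AGA1 (-2.90 ± 0.29, adjusted p = 0.0001), STE2 (-2.16 ± 0.30, adjusted p = 0.004), AGA2 (-3.09 ± 0.45, adjusted p = 0.005), FAR1 (-2.04 ± 0.31, adjusted p = 0.0063), MFA2 (-3.12 ± 0.48, adjusted p = 0.0065) and FUS3 (-2.21 ± 0.40, adjusted p = 0.031). At midlog, the differences of AGA1 and AGA2 were 1.25 ± 0.38 and 1.48 ± 0.57, which did not pass the test. Within replicates 1 and 2 the change was -2.67 and -3.13 for AGA1, -2.38 and -1.93 for STE2, -3.78 and -2.40 for AGA2, -2.09 and -1.98 for FAR1, -3.66 and -2.58 for MFA2 and -2.56 and -1.86 for FUS3. Without wt1 replicate 1 the test called 1 gene.

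The subtelomeric genes had positive differences at midlog too, which did not pass the test. COS12 differed there by 1.697 ± 0.49, YGL262W by 1.41 ± 0.49 and YIR042C by 0.94 ± 0.48. Their change between midlog and starvation did not pass either (COS12 1.51 ± 0.36, adjusted p = 0.30). In wt1, COS12 had 18 and 35 reads at midlog and 0 or 1 read in starvation.

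**Figure D5:**
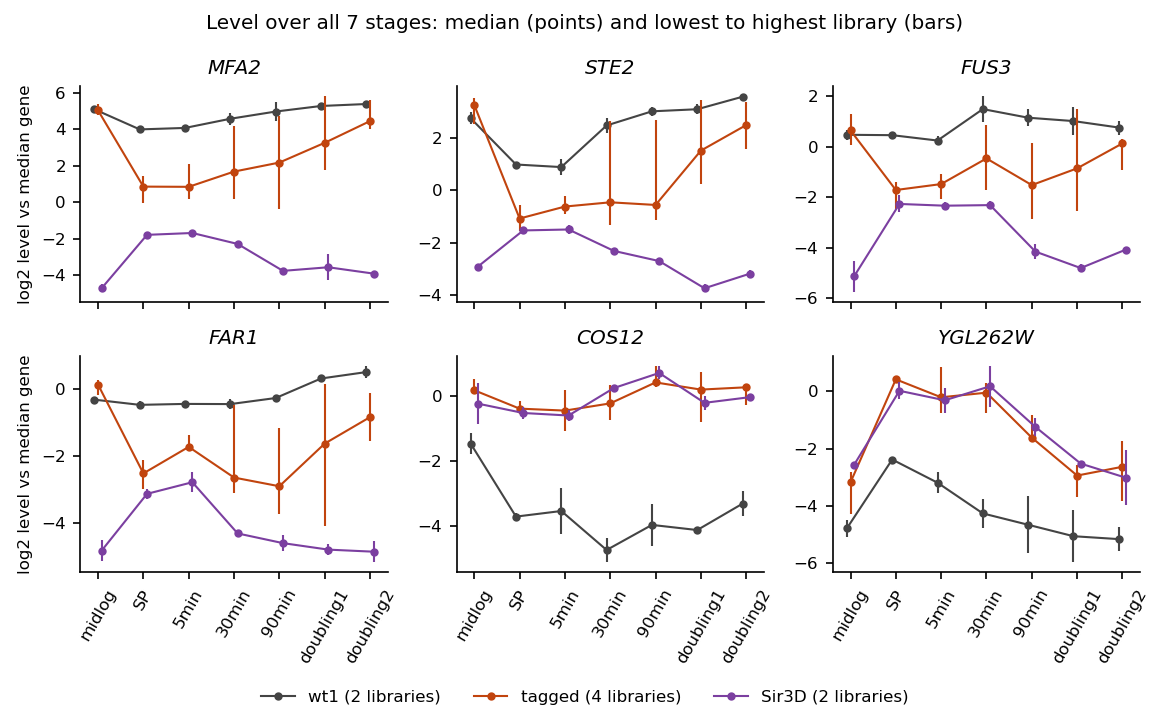
Level (log2 relative to the median gene, y axis) of 6 genes at the 7 stages of the series (x axis) in wt1, the tagged strains and Sir3D, as the median of the libraries with bars from the lowest to the highest. The median tagged level of MFA2, STE2, FUS3 and FAR1 is near wt1 at midlog, falls towards Sir3D at SP and is nearer to wt1 again at doubling2, whereas Sir3D stays low throughout.

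Levels at later stages, given with no test, differed between the tagged series and between genes. At 30 min, MFA2 had a level of 4.18 in Sir3_3xHA replicate 2 and 0.17, 1.65 and 1.71 in Sir3_3xHA replicate 1 and in Sir3_3xT7 replicates 1 and 2. After 1 doubling it was at 4.63 and 5.84 in the Sir3_3xHA replicates 1 and 2, and at 1.89 and 1.75 in those of Sir3_3xT7. After 2 doublings all 4 lay between 4.02 and 5.59, against a wt1 median of 5.39. STE2 was at 2.66 and 3.47 in Sir3_3xHA after 1 doubling and at 0.24 and 0.38 in Sir3_3xT7. After 2 doublings the Sir3_3xT7 replicates were at 1.58 and 1.92, still below wt1 at 3.61 and 3.54. FUS3 was at -2.06 and -2.55 in Sir3_3xT7 replicates 1 and 2 after 1 doubling, against 1.58 and 0.44 in wt1, and at 1.49 and 0.35 in Sir3_3xHA. FAR1 in Sir3_3xT7 was at -2.55 and -2.98 at SP, -3.07 and -3.09 at 30 min and -4.11 and -3.17 after 1 doubling, against 0.43 and 0.20 in wt1 at that stage. MFA2 in Sir3_3xHA replicate 1 was at -0.39 at 90 min, below its level of -0.07 at SP. The gaps to wt1 in Sir3_3xT7 after 1 doubling were thus no smaller than at SP for MFA2, STE2, FUS3 and FAR1. For STE4 they were smaller.

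The tagged strains did not differ from each other by the test in starvation. For 3xT7 minus 3xHA, averaged over SP and 5 min, 0 of 4505 genes passed in limma (18 at an unadjusted p under 0.05). The differences were -0.46 ± 0.33 for FUS3, -0.05 ± 0.33 for STE2, -0.06 ± 0.68 for MFA2, -0.08 ± 0.37 for COS12 and 0.34 ± 0.35 for YGL262W. A p that misses the threshold does not show that the strains act alike.

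The full deletion gave a reference for loss of Sir3. Sir3D minus wt2, which shares no library with the comparison above but differs from it in strain background, called 9 genes in starved cells (0.2%). They share COS12, YGL262W, FUS3 and STE2 with the 6 genes of the tagged strains in the same direction, 4 of 6 and 4 of 9. Both comparisons took the spread of each gene from the same fit, so their calls are not independent. For Sir3D minus wt2 the values were 3.04 ± 0.37 for COS12, 2.99 ± 0.35 for YGL262W, -2.56 ± 0.33 for FUS3 and -2.27 ± 0.33 for STE2. GEX1 and IME4 were listed at 0 in all 4 wt2 libraries and detected in all 4 Sir3D libraries. For MFA2 the deletion gave -6.57 ± 0.68 and for STE4 -2.50 ± 0.28, against -3.15 and -1.24 in the tagged strains. The test of the difference between both comparisons called 0 genes (lowest adjusted p = 1.00; 72 at an unadjusted p under 0.05), with 3.42 ± 0.90 for MFA2 and 1.26 ± 0.38 for STE4 (unadjusted p = 0.002 and 0.00495). At midlog, Sir3D stood apart from the tagged strains, with MFA2 at a median level of -4.72 against 5.04 and FUS3 at 0 reads in both libraries against 63 to 150.5 reads.

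On the spike-in scale, which follows mRNA per mass of total RNA and not per cell, the median gene had a log2 value of -1.48 and -1.13 in Sir3_3xT7 replicates 1 and 2, -1.52 and -0.96 in Sir3_3xHA and -1.65 and -1.21 in wt1. The tagged mean was -1.27 ± 0.27 (SD, n = 4) and the wt1 mean -1.43. The difference of 0.16 gave p = 0.53 in an exact two-sided permutation test, whose smallest possible p is 0.067. Replicate 2 was above replicate 1 in each strain, and the groups overlapped across numbers. Within a number, every tagged series was above wt1, by 0.174 (Sir3_3xT7) and 0.129 (Sir3_3xHA) in replicate 1 and by 0.0811 and 0.252 in replicate 2. An exact two-sided permutation within the numbers gave p = 0.22, and its smallest possible p is 0.11.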

How the data were processed

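The table deposited by the authors gives, per coding sequence and library, a log2 value of median read coverage, scaled to fission yeast total RNA added at 10 to 1 by mass, per the file headers and the labels' protocols. CASAVA 1.7.0 and the fission yeast build ASM294v2 come from the submitters' processing notes. For budding yeast, the aligner, build and counter are not given in the sources. Of 5691 genes compared with R64, all lie on the same chromosome and 87.7% have a deposited start site within 200 bases of the R64 start codon, and 5694 of 6319 table entries matched R64 by name.

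After removal of the log2, all values were multiples of 0.5 reads, except 1 value per library that stands for coverage 0 and was set to 0. Genes above 0.15 in at least 4 of the 12 libraries were tested (4505). Each library was centred on its median gene, SP and 5 min were averaged per series, and limma 3.58.1 (R 4.3.3, Python 3.11.15) was fitted to 16 series of 8 strains with a variance trend, leaving 8 residual degrees of freedom. Tests were two-sided, and ± is the SE unless stated. In simulated data with independent noise, 50 genes each were changed by 1.5, 2, 3 and 4 on the log2 scale, all at once. The averaged comparison called 37, 37, 47 and 49 of them, with 10 calls among the other genes. So many changed genes make the adjusted p easier to pass, so these rates do not carry over to the data. No counting interval is given, since a median coverage is not a count.

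Named genes are the SIR and cassette genes, the called genes, genes with non-overlapping groups filled by p to 15 per direction, and up to 4 tested genes of largest t per list. Genes of the chromosome ends and those at 0 in wt1 were named after their values were seen. Members, lists and comparisons were chosen with earlier results of these data known.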

Additional observations from a re-analysis of the deposited data

Results flagged for a closer look

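In 2 of 43 named genes, 1 tagged series stood apart from the other 3 by Dixon's test at its 95% critical value, which chance does in about 1 of 20 groups. SIR1 had a level of -1.36 in Sir3_3xHA replicate 1, against -1.05 in the other 3. MFA1 had a level of 0.78 in the same series, against 1.85 to 1.96. The cause was not tested.

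The difference between tagged strains and wt1 changed between midlog and starvation for 6 genes by a direct test (limma, adjusted p under 0.05): AGA1 by -2.90, STE2 by -2.16, AGA2 by -3.09, FAR1 by -2.04, MFA2 by -3.12 and FUS3 by -2.21 on the log2 scale.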

How the results depend on the processing

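The averaged comparison called 6 genes, and 6 with the replicate block, 4 with a pseudocount 10 times as large, 5 on the spike-in scale and 9 with wt2 in place of wt1. It called 2 with only wt1 and the tagged strains, 3 with array weights, 11 with single libraries treated as independent, 3 for Sir3_3xHA alone, and 15 with the replicate block and only those strains, a setting added after seeing the data. Leaving out 1 series gave 3 to 7, with 3 without wt1 replicate 1 or wt1 replicate 2. YGL262W was called in 22 of 22 alternatives, COS12 in 20, YIR042C in 19, FUS3 in 16, STE2 in 12 and GEX1 in 9. At SP (9 genes) a larger pseudocount gave 5, the spike-in scale 5 and only wt1 and the tagged strains 2, and leaving out 1 series gave 2 to 9. The lowest were 2 without wt1 replicate 2 and 4 without wt1 replicate 1. At 5 min (3 genes) the same 3 settings gave 0 each, and leaving out 1 series gave 0 to 3. The change from SP to 5 min gave 0 to 1 and the change from midlog 1 to 6, with 7 in a replicate block, 4 with a larger pseudocount and 9 with no filter on low values. The 3xT7 minus 3xHA comparison and the difference from Sir3D called 0 under each alternative. The spike-in scale moved the median of all genes at SP from 0.00872 to 0.213. On that scale the median gene differed by -0.0591 to 0.377 when 1 series was left out, the former without wt1 replicate 1. BAR1 reversed to 4.16 with wt2 in place of wt1 and to 1.96 with the mean of wt1 and wt2, being at 0 in all starved wt2 libraries. Of 946 values of named genes, 866 kept direction and call. Same-numbered series deviated together (r of 0.47 to 0.53 across genes), but 2 numbers cannot show a pairing. The main fit has no term for the number, so any shared part stays in its spread. The genes added by the block with only those strains include MFA2, ERR3, AAD15, YGL193C, FAR1, RME1, AGA1 and AGA2. None of these passed in the main average. The cause of these shifts was not tested. Without the library of lowest depth, Sir3_3xT7 replicate 1 at 5 min (a median of 4 reads), the average called the same 6 genes, a setting added after seeing the data, as was the permutation of the median gene within the replicate block (difference 0.159, p = 0.22).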
